A study of Drosophila melanogaster with 4 samples.

Results

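Subunit genes of the mitochondrial respiratory chain, of the mitochondrial ATP synthase and of the vacuolar ATPase were measured in RNA from the heads of male Drosophila melanogaster, fed levetiracetam or normal food. The genes were taken by symbol from the annotation of the array: every gene whose symbol starts with ND-, Sdh, UQCR, COX, ATPsyn or Vha. This gave 50 genes, printed as 59 features or 118 spots, of 6793 genes on the array that carry 1 symbol. Of these 50 genes, 31 had values on at least 3 of the 4 arrays and are described below, 28 on 4 arrays and 3 on 3 arrays. They comprise 12 genes of complex I, 2 of complex II, 1 of complex III, 4 of complex IV, 7 of complex V and 5 of the vacuolar ATPase. None of the 31 passed the test for a difference between levetiracetam and normal food.

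Complexes I and II pass electrons from NADH and from succinate to ubiquinone, complex III passes them to cytochrome c, and complex IV passes them to oxygen. Complexes I, III and IV move protons out of the mitochondrial matrix as they do so, and the returning protons turn complex V, the ATP synthase, which makes most of the ATP of nervous tissue and is abundant in photoreceptors. The vacuolar ATPase runs the other way: it spends ATP to pump protons into lysosomes, endosomes and synaptic vesicles, and the gradient across the vesicle membrane drives the uptake of neurotransmitter. A membrane-embedded ring that carries protons and a peripheral part that binds nucleotides are common to both ATPases.

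Levetiracetam is given against epilepsy, and in mammals its binding site is SV2A, a protein of synaptic vesicles. The treated group was unmated Oregon-R wild type males on food with 5 mg/ml of levetiracetam for 3 days, and the control group was males of the same strain on normal food, with all flies on normal food for 7 days beforehand and 30 flies to a vial. RNA came from 8 pools of whole heads, in 4 parallel sets of 1 treated and 1 control pool, and the 2 pools of a set shared 1 spotted cDNA array, which is a biological replicate. Replicates 1 and 2 had the drug's RNA in the dye Cy5, and replicates 3 and 4, the dye swap, had it in Cy3. The labels give the flies an age of 3 to 4 days and the design text gives 7 to 10 days. The growth text of the control channel of replicate 1 and of the levetiracetam channel of replicate 4 gives 2 to 3 days after collection, where the other channels have 10 to 11.

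The values are log2 ratios of the 2 channels, and the sources used here do not state which channel was divided by which. The label of every array puts Cy5 in the first channel, so the ratio was taken as Cy5 over Cy3, and the signs of replicates 3 and 4 were turned. A positive value then stands for a higher level with levetiracetam. This is called the likely direction below. If the swap was already allowed for before deposit, the values as deposited are the right ones, and those of replicates 3 and 4 have the opposite sign. Both readings are given for the whole set, the complexes and the lists. Values of single genes are in the likely direction unless said otherwise.

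Replicates 1 to 4 had values for 8040, 12608, 8286 and 9827 of the 27648 spots. The median log2 ratio of the 3853 genes and unnamed features on at least 3 arrays was -0.135, -0.111, 0.073 and 0.293 in the likely direction. As deposited, all 4 medians were below 0, so the readings differ for the array as a whole and not only for the subunit genes. Between pairs of arrays, Pearson's r of the values as deposited ran from -0.14 to 0.14 over the 28 subunit genes on all 4 arrays, and from 0.104 to 0.258 over 2870 genes and features. For pairs of opposite dye orientation it has the opposite sign in the likely direction. These correlations are across genes, which are not independent replicates. Markers of photoreceptors were measured, with values on at least 3 arrays for 5 of the 8 on the array, among them Arr1, trpl and inaD. The same held for 2 of 3 neuronal, 2 of 7 glial, 6 of 7 fat body and 7 of 10 muscle markers, beside 33.3% of all genes. Genes listed as markers of tissues outside brain and eye thus also gave values, which does not establish the tissue their RNA came from. The median log2 ratio of these lists was 0.15 for photoreceptor, 0.022 for neuronal, -0.16 for glial, 0.062 for fat body and 0.0022 for muscle markers. As deposited, these medians were -0.032, -0.34, -0.19, -0.29 and -0.080. No marker passed the adjusted threshold. In the fat body list, 2 of the 6 tested genes were higher with levetiracetam at an unadjusted p under 0.05 in limma, beside 2.6% of all: Apoltp, at 0.76 ± 0.36 (SD, 3 arrays), and bmm, at 0.46 ± 0.42 (SD, 4 arrays). As deposited, their means were -0.53 and -0.28. Of the 6 fat body genes, 2 had means below 0 in the likely direction. One of them was apolpp, at -0.33 ± 0.41 (SD, 4 arrays), and -0.30 as deposited. In pooled heads, fewer cells of a type and less RNA per cell cannot be told apart.

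Paralogues of the subunits were measured far less often than the usual subunits. The symbols separate 36 genes for the usual subunits from 14 paralogues, marked by an added L or, in the vacuolar ATPase, by a copy number other than that of Vha16-1. This division was made after the values were seen and is a description with no test. Values on at least 3 arrays were present for 2 of the 14 paralogues (14.3%), for 29 of the 36 usual subunits (80.6%) and for 33.3% of all 6793 genes. The 2 paralogues were COX6AL and COX6CL. No spot passed the authors' filters for 8 others, namely ND-24L, ND-51L2, SdhCL, COX7AL, ATPsynGL, ATPsynbetaL, Vha100-4 and VhaAC39-2. Among the usual subunits, ND-19, ND-75 and SdhB had no value on any array. A gene without a value is one whose spots failed the filters on saturation, flags or signal to noise, and its level was not measured.

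**Figure D1:**
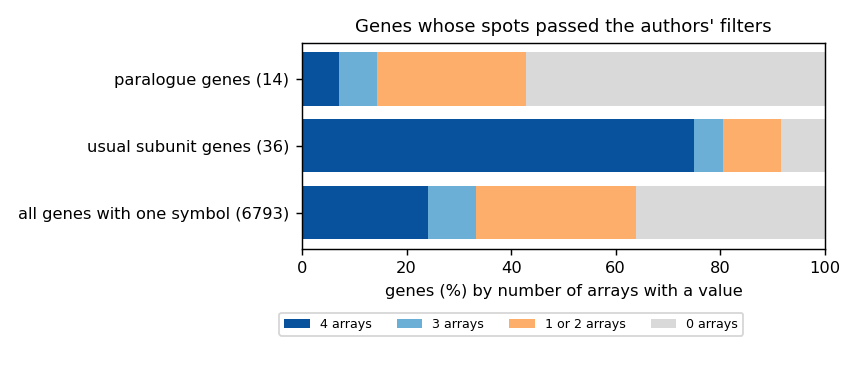
Share of genes, in percent, by the number of arrays (0, 1 or 2, 3, 4) on which they had a value, for the 14 paralogues, the 36 usual subunits and all 6793 genes with 1 symbol. The usual subunits are mostly on all 4 arrays, and most paralogues have no value.

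The other 8 genes had values on 1 or 2 arrays and were not tested. SdhAL, a relative of the flavoprotein that oxidises succinate, lay at -0.73 and -0.51 on replicates 1 and 2. SdhBL, a relative of the iron-sulphur subunit, had only replicate 4, at 0.27. Vha36-2, a relative of a central stalk subunit of the vacuolar ATPase, lay at -0.27 on replicate 2 and 1.33 on replicate 4. The 2 spots behind that last value, the farthest from 0 of any subunit gene on 1 array, read 2.24 and 0.42, so it rests mainly on 1 spot. Vha68-3, a relative of the catalytic subunit, lay at -0.050 and 0.25 on replicates 2 and 4. The usual subunits ND-18, ND-B18, ATPsynC and Vha26 lay between -0.29 and 0.38 on the arrays that measured them.

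Over the 31 genes tested, the mean log2 ratio of levetiracetam over normal food ran from -0.26 to 0.29, with a median of 0.057, beside 0.027 for all 3853 genes and features. Means were above 0 in 18 of the 31 genes, where 57.2% of all were. No subunit gene passed a Benjamini-Hochberg adjusted p of 0.05 in limma's one-sample test, and 0 of 3853 did (0%). At an unadjusted p under 0.05, 0 of the 31 passed, beside 100 of 3853 (2.6%); the lowest p was 0.0986, for VhaSFD, and all adjusted p-values were 1.00. With 4 arrays the precision was limited. The 95% interval held 0 for all 31 genes, and its half-width had a median of 0.385 on the log2 scale, or 1.31-fold. The highest upper bound was 0.64 (1.56-fold, VhaSFD) and the lowest lower bound was -0.74 (0.598-fold, COX7A). The half-width ran from 0.33 (ND-ASHI) to 0.49 (Vha16-1).

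**Figure D2:**
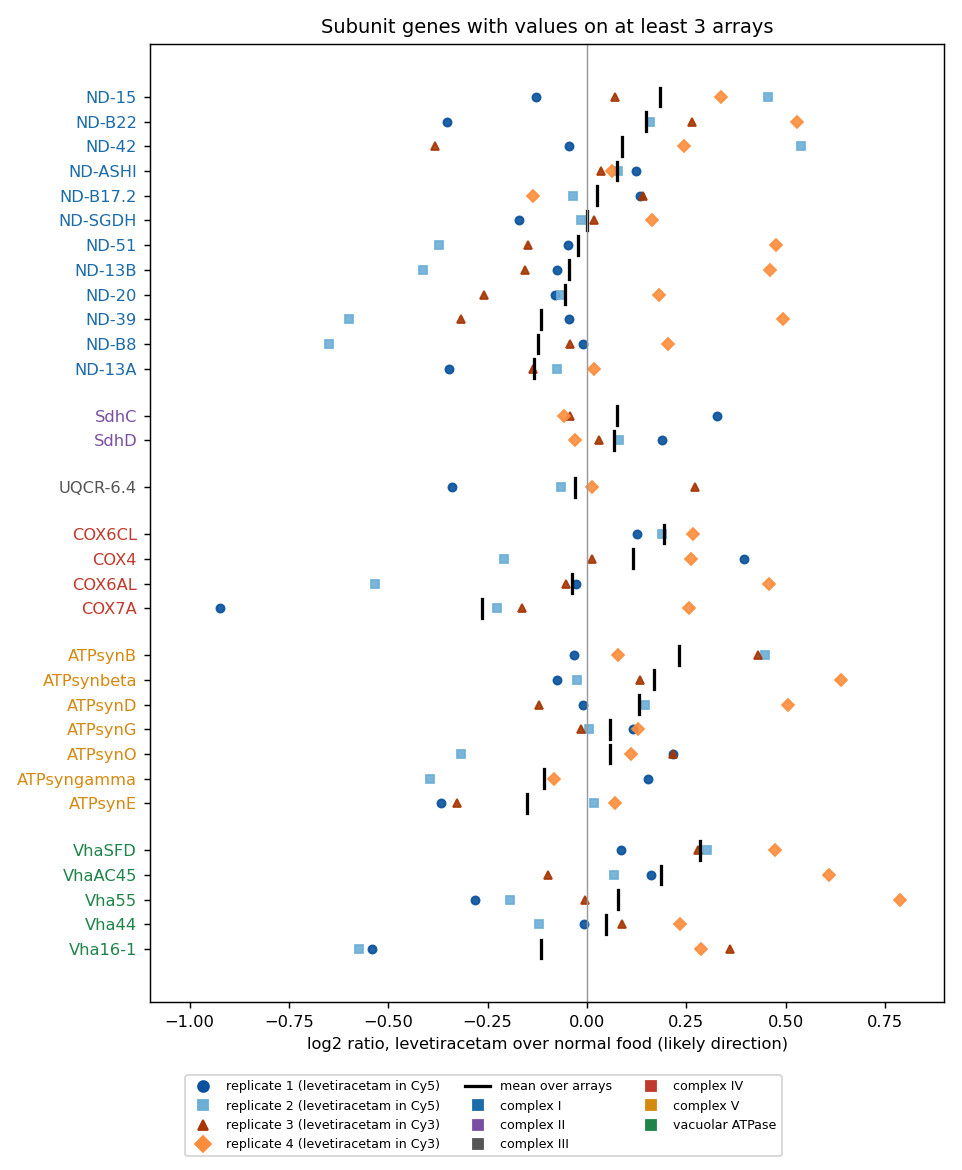
Log2 ratio (x axis, levetiracetam over normal food, likely direction) for the 31 subunit genes with values on at least 3 arrays (y axis, grouped by complex), with a point per array and a black bar at the mean. For most genes the 4 arrays lie on both sides of 0, and replicate 4 is often the rightmost point.

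The spread between arrays was large beside the gene means, which ran from -0.26 to 0.29. The SD over arrays had a median of 0.263 for the 31 genes (0.037 to 0.509), beside 0.341 for all 3853. The 2 neighbouring spots of a feature differed by a median of 0.234 over the 143 pairs of the subunit genes, beside 0.261 over all 19248 pairs. One sign on all 4 arrays was found in 2 of the 28 genes measured on all of them, ND-ASHI and VhaSFD, beside 8.61% of all. Both were above 0, as were 6.9% of all. As deposited, 5 of the 28 had one sign on all 4 arrays (ND-SGDH, UQCR-6.4, ATPsynbeta, Vha16-1 and Vha44), beside 27.6%. All 5 were below 0, as were 25.5% of all. None of these shares stands out from the background.

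Complex I had the most genes measured, 12 of 18 on the array, and its subunits lay on both sides of 0. The mean over its 12 genes was -0.087, -0.082, -0.076 and 0.25 on replicates 1 to 4, or 0.0022 ± 0.17 (SD, n = 4). Replicate 4 stood alone above 0, though below the median of its array, 0.293. Without replicate 4 the mean of complex I was -0.082. Of the 12 genes, 5 had means above 0 and 7 below, where 57.2% of all were above 0. As deposited, 3 were above and 9 below, where 20.2% of all were above 0. None of the 12 passed the test.

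Core subunits are encoded by 2 of the measured genes. ND-51 binds NADH, where electrons enter, and lay at -0.048, -0.37, -0.15 and 0.48 on replicates 1 to 4 (mean -0.023 ± 0.36, SD, n = 4). ND-20, which lies near the site where ubiquinone is reduced, lay at -0.079, -0.065, -0.26 and 0.18 (mean -0.056 ± 0.18). For both genes replicate 4 alone was above 0, and the 95% intervals ran from -0.44 to 0.40 and from -0.41 to 0.30. The median of replicate 4 over all genes and features was itself 0.293, with ND-51 above it and ND-20 below it there.

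The other 10 genes are accessory subunits, which surround the core and serve in its assembly and stability. ND-15, of the membrane arm, had the highest mean of the complex: -0.13, 0.46, 0.071 and 0.34 (mean 0.18 ± 0.26). ND-B22, of the same arm, lay at -0.35, 0.16, 0.26 and 0.53 (mean 0.15 ± 0.37). Replicate 1 was below 0 and the other arrays above it for both, and without replicate 4 the mean of ND-B22 was 0.024. Minus the array medians, ND-B22 stood at -0.22, 0.27, 0.19 and 0.24. ND-ASHI had the smallest spread of all 31 genes, at 0.12, 0.079, 0.035 and 0.064 (mean 0.076 ± 0.037), above 0 on every array, with an interval of -0.26 to 0.41. Minus the array medians its values were not as close, at 0.26, 0.19, -0.038 and -0.23 (SD 0.22), below the median on both swapped arrays. ND-SGDH, also in the membrane arm, lay at -0.17, -0.015, 0.019 and 0.16, with a mean of -0.00069 ± 0.14. ND-42 had 2 arrays on each side of 0, at -0.045, 0.54, -0.38 and 0.25 (mean 0.089 ± 0.39), and without replicate 2 its mean was -0.060.

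At the low end of complex I stood 3 accessory genes. ND-13A, in the peripheral arm, lay at -0.35, -0.074, -0.14 and 0.018 (mean -0.13 ± 0.15), below 0 on 3 of 4 arrays. ND-B8 lay at -0.0095, -0.65, -0.042 and 0.20 (mean -0.12 ± 0.37), and ND-39 at -0.045, -0.60, -0.32 and 0.49 (mean -0.12 ± 0.47). Without replicate 2, where both had their lowest value, the means were 0.051 and 0.044. ND-13B and ND-B17.2, both of the peripheral arm, had means of -0.045 ± 0.37 and 0.027 ± 0.13.

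Complex II, succinate dehydrogenase, which is also an enzyme of the citric acid cycle, was covered by its 2 membrane anchors. SdhC lay at 0.33, -0.043 and -0.057 on replicates 1, 3 and 4 (mean 0.076 ± 0.22, n = 3), with no value on replicate 2. SdhD lay at 0.19, 0.080, 0.030 and -0.030 (mean 0.067 ± 0.092, n = 4). Both were highest on replicate 1 and lowest on replicate 4, and neither passed the test. Minus the array medians, the mean of complex II stood at 0.39, 0.19, -0.079 and -0.34 on replicates 1 to 4. That of complex I stood at 0.049, 0.029, -0.15 and -0.040, on the same side of 0 on each array. Without replicate 1 the mean of SdhC was -0.050. Complex III was represented by 1 small subunit, UQCR-6.4, at -0.34, -0.065, 0.27 and 0.013 (mean -0.030 ± 0.25). Its 2 unswapped arrays were below 0 and its 2 swapped arrays above, so as deposited all 4 were below 0 (mean -0.17 ± 0.16).

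Complex IV, cytochrome c oxidase, had the gene with the lowest mean of all 31. COX7A, a small nuclear-encoded subunit, lay at -0.92, -0.23, -0.16 and 0.26 on replicates 1 to 4 (mean -0.26 ± 0.49, limma 95% interval -0.74 to 0.21). Replicate 1 set much of this mean, which was -0.044 without it. The gene has 2 features: the first was measured on 2 arrays only, at -1.52 and -0.28 on replicates 1 and 2, and the second lay at -0.33, -0.17, -0.16 and 0.26, with a mean of -0.10 ± 0.25. The low value of replicate 1 came from the first feature, which was 1.20 below the second on that array.

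COX4, another nuclear-encoded subunit, lay at 0.40, -0.21, 0.013 and 0.26 (mean 0.12 ± 0.27), with a mean of 0.023 without replicate 1. The paralogue COX6AL lay at -0.028, -0.53, -0.051 and 0.46 (mean -0.038 ± 0.41). The paralogue COX6CL lay at 0.13, 0.19 and 0.27 on replicates 1, 2 and 4 (mean 0.19 ± 0.071, n = 3), above 0 on the 3 arrays that measured it, with an interval of -0.23 to 0.62. Of the 4 genes, 2 had means above 0 and 2 below (1 above and 3 below as deposited).

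Complex V had 5 of its 7 genes above 0 in the likely direction and 1 of 7 as deposited, beside 57.2% and 20.2% of all genes and features, and none passed the test. ATPsynbeta, the catalytic subunit that makes ATP, lay at -0.075, -0.025, 0.13 and 0.64 (mean 0.17 ± 0.33). Its mean was 0.011 without replicate 4, and minus the array medians it stood at 0.060, 0.0855, 0.061 and 0.35. ATPsyngamma, the central stalk that turns inside the catalytic ring, lay at 0.15, -0.39 and -0.083 on replicates 1, 2 and 4 (mean -0.11 ± 0.27, n = 3).

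The peripheral stalk holds the catalytic part still, and 3 of its genes were measured. ATPsynB had the highest mean of the complex, at -0.033, 0.45, 0.43 and 0.077 (mean 0.23 ± 0.25), with an interval of -0.14 to 0.61. ATPsynD lay at -0.010, 0.15, -0.12 and 0.51 (mean 0.13 ± 0.27) and ATPsynO at 0.22, -0.32, 0.22 and 0.11 (mean 0.057 ± 0.25). The replicates that were high differed between these 3 genes of 1 structure, and without replicate 4 the mean of ATPsynD was 0.0053. Minus the array medians, ATPsynD stood at 0.13, 0.26, -0.19 and 0.21. Subunits e and g sit where 2 ATP synthases meet in the cristae. ATPsynE lay at -0.37, 0.018, -0.33 and 0.072 (mean -0.15 ± 0.23), while ATPsynG lay at 0.12, 0.005, -0.013 and 0.13 (mean 0.059 ± 0.074).

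The vacuolar ATPase held the gene with the highest mean in the likely direction, and 4 of its 5 genes were then above 0, beside 57.2% of all genes and features. As deposited, 0 of the 5 were above 0, beside 20.2% of all. VhaSFD, subunit H of the peripheral part, lay at 0.086, 0.30, 0.28 and 0.47 on replicates 1 to 4 (mean 0.29 ± 0.16). All 4 arrays were above 0, and all 4 were above the median of their array. The limma interval was -0.067 to 0.64, or 0.955- to 1.56-fold, and the unadjusted p was 0.0986. Without any 1 replicate the mean stayed between 0.22 and 0.35. As deposited, its mean was -0.092 ± 0.35.

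VhaAC45, an accessory subunit, lay at 0.16, 0.070, -0.097 and 0.61 (mean 0.19 ± 0.30), and Vha55, the nucleotide-binding subunit B, at -0.28, -0.19, -0.0035 and 0.79 (mean 0.077 ± 0.49). Without replicate 4, whose own median was 0.293, the means were 0.045 and -0.16. Minus the array medians, VhaAC45 stood at 0.30, 0.18, -0.17 and 0.32. Vha55 stood at -0.15, -0.083, -0.0765 and 0.49. Vha44, subunit C, which links the peripheral part to the stalks, lay at -0.008, -0.12, 0.088 and 0.24 (mean 0.049 ± 0.15).

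Vha16-1 encodes the proton-carrying ring. It lay at -0.54, -0.57, 0.36 and 0.29 in the likely direction (mean -0.12 ± 0.51, the largest SD of the 31). As deposited, all 4 arrays were below 0, and the mean was -0.44 ± 0.14. This gave an unadjusted p of 0.0082 and an adjusted p of 0.16 in limma. It was the 1 subunit gene of 31 with an unadjusted p under 0.05 in that reading, where 19.2% of all genes and features had one, nearly all of them below 0 (18.8%). It did not pass the adjusted threshold, nor did any of the 3853 (0%). Minus the median of each array, the deposited mean of Vha16-1 was -0.29. In the limma fit of deposited values with each array centred on its median, 0 subunit genes had an unadjusted p under 0.05, beside 452 of 3853. With the print block median subtracted, 3 did, beside 410 of 3853. With 1 replicate left out, 1 to 3 did, beside 519 to 710 of 3853.

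**Figure D3:**
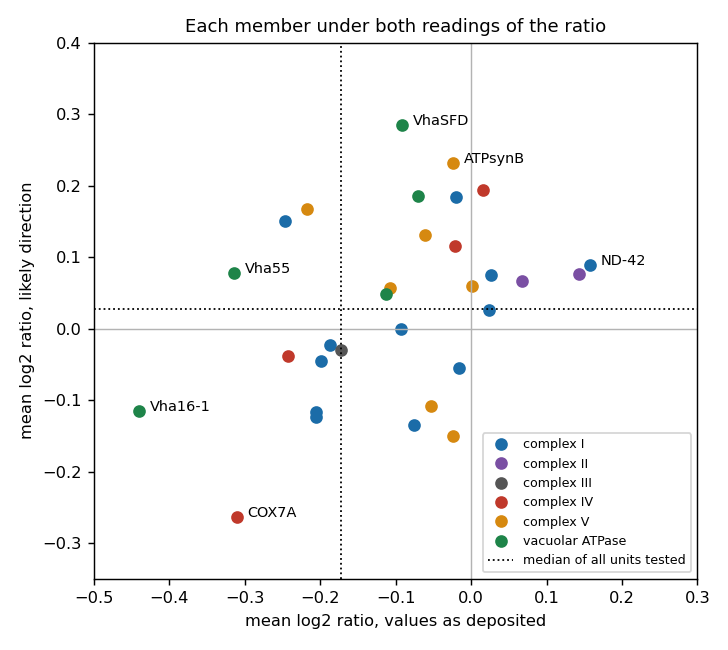
Mean log2 ratio of each of the 31 subunit genes with the signs of replicates 3 and 4 turned (y axis, likely direction) against the mean as deposited (x axis), coloured by complex, with dotted lines at the medians of all genes and features. Most genes lie below 0 as deposited and on both sides of 0 in the likely direction, and Vha16-1 is the lowest as deposited.

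Under the other reading the median of the subunit genes lay below 0, but not as far as that of all genes and features. This did not hold for every complex. Minus the array medians, the vacuolar ATPase averaged -0.053 and complex III, on 1 gene, -0.019. As deposited, the median of the 31 genes was -0.076, beside -0.172 for all 3853, and 7 of the 31 were above 0, beside 20.2% of all. Means ran from -0.44 (Vha16-1) to 0.16 (ND-42), and 11 of the 31 changed sign between the readings. Each of these 11 was above 0 in the likely direction and below 0 as deposited. They were ND-15, ND-B22, COX4, ATPsynB, ATPsynD, ATPsynO, ATPsynbeta, Vha44, Vha55, VhaAC45 and VhaSFD. The deposited mean was -0.25 for ND-B22, -0.31 for Vha55 and -0.024 for ATPsynB. A test of the difference between the dye orientations found an unadjusted p under 0.05 in 0 of the 31 genes, beside 6.44% of all, and the lowest p among them was 0.068, for VhaSFD.

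Set against the median of its own array, the mean over the respiratory chain and ATP synthase changed side with the dye, though complexes III and IV on their own did not. In the likely direction, the mean of the 26 genes of complexes I to V stood at 0.086, 0.036, -0.095 and -0.075 from the array median (mean -0.012 ± 0.087). It was above the median on both arrays with levetiracetam in Cy5 and below it on both arrays with levetiracetam in Cy3. As deposited, the same means were 0.086, 0.036, 0.095 and 0.075 (mean 0.073 ± 0.026), above the median on all 4 arrays. On replicates 1 to 4, 20 of 26, 16 of 25, 18 of 24 and 18 of 26 genes were then above the array median. Complex V lay above it by 0.14, 0.094, 0.019 and 0.086 as deposited, complex I by 0.049, 0.029, 0.15 and 0.040, and complex II, on 1 or 2 genes, by 0.39, 0.19, 0.079 and 0.34. Complex IV stood at 0.028, -0.084, 0.14 and -0.018, and complex III, on 1 gene, at -0.20, 0.046, -0.20 and 0.28, each above the median on 2 arrays and below it on 2. Whether this belongs to the dye or to the drug cannot be told apart while the direction of the ratio is unstated.

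The vacuolar ATPase showed no such change of side in the likely direction. In the likely direction its 5 genes stood at 0.019, 0.0077, 0.053 and 0.19 above the array median (mean 0.066 ± 0.082). As deposited they stood at 0.019, 0.0077, -0.053 and -0.19 (mean -0.053 ± 0.094). The largest of these values was on replicate 4, the array whose own median was farthest from 0.

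**Figure D4:**
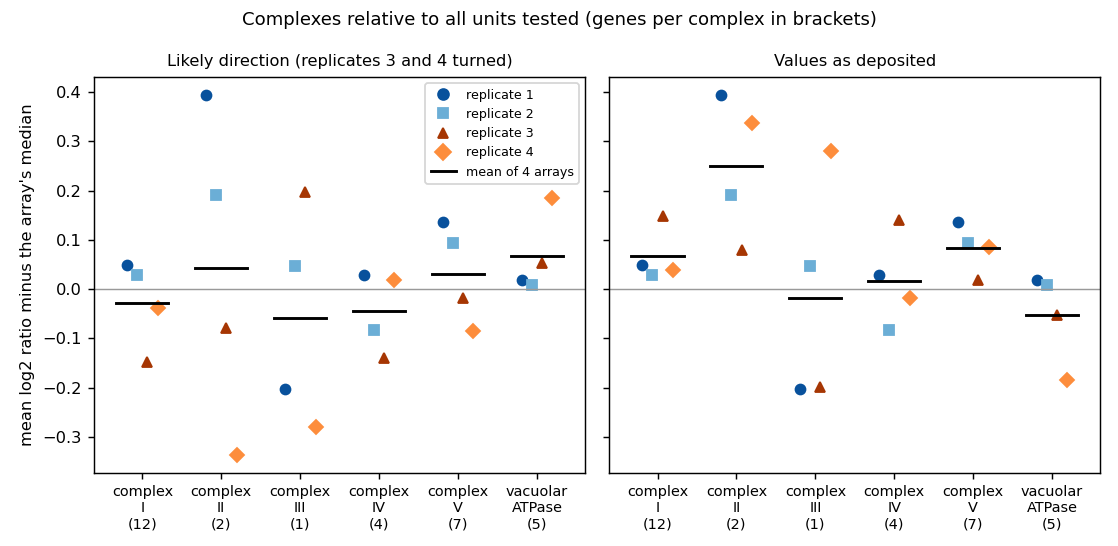
Mean log2 ratio of the measured genes of each complex minus the median of the array (y axis), with a point per array and a bar at the mean over 4 arrays, in the likely direction (left) and as deposited (right). Complexes I, II and V lie above the array median on all 4 arrays as deposited, and fall on both sides of it in the likely direction.

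The contrast between the mitochondrial complexes and the vacuolar ATPase, within an array, also changed sign with the reading. Complexes I to V minus the vacuolar ATPase came to 0.066, 0.028, -0.15 and -0.26 on replicates 1 to 4 in the likely direction (mean -0.078 ± 0.15, SD, n = 4), below 0 on 2 of 4 arrays. As deposited the mean was 0.13 ± 0.10, above 0 on all 4. In the likely direction, complex I minus the vacuolar ATPase averaged -0.094 ± 0.14, complex II -0.024 ± 0.39, complex III -0.13 ± 0.27 and complex V -0.035 ± 0.18. Complex IV averaged -0.11 ± 0.090 and was the only one below the vacuolar ATPase on 3 of 4 arrays. All other means but this one were smaller than their SD. As deposited, the means were 0.12 ± 0.11 for complex I, 0.30 ± 0.18 for complex II, 0.034 ± 0.31 for complex III, 0.069 ± 0.13 for complex IV and 0.14 ± 0.092 for complex V. Complexes I, II and V were above the vacuolar ATPase on 4 of 4 arrays in that reading.

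Single genes that stayed on one side of their array's median were few. In the likely direction, ATPsynbeta and VhaSFD were above it on all 4 arrays and COX7A below, 3 of 28 genes beside 10.6% of all. As deposited, ND-20, ND-42, ND-ASHI, SdhD and ATPsynG were above it on all 4, 5 of 28 beside 22%. Both counts are close to the background.

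The array carries 2 features for 9 of the 50 genes, and 6 of these had values on both features, which gives a second measure of the same RNA. The features had the same sign on 1 of 4 arrays for ND-51, SdhD and Vha44, on 2 of 4 for ND-SGDH and ATPsynG, and on both shared arrays for COX7A. The largest gap was in ND-51, where the features lay 1.21 apart on replicate 2. The next was the 1.20 of COX7A, and in the other 4 genes the largest gap ran from 0.49 to 0.64. These gaps exceed the highest mean of any subunit gene, 0.29. The mean of ATPsynG was -0.048 on its first feature and 0.17 on its second, and that of Vha44 was -0.051 and 0.15.

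**Figure D5:**
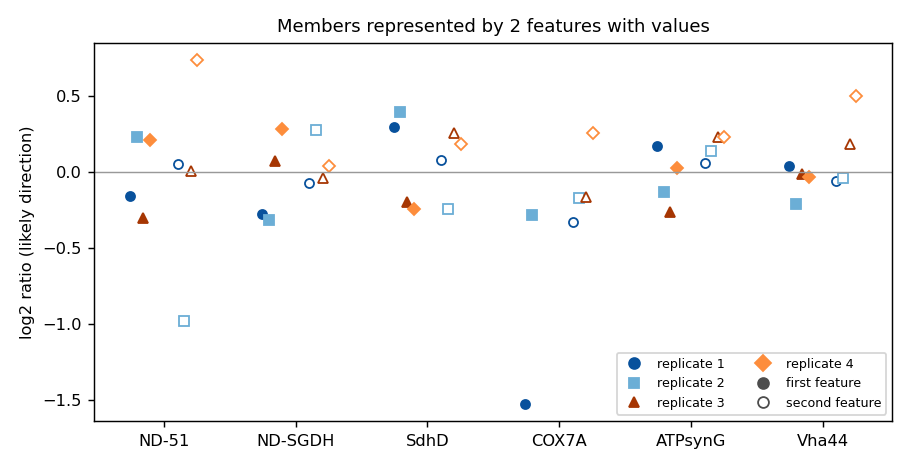
Log2 ratio (y axis, levetiracetam over normal food, likely direction) on each array for the 2 features of the 6 subunit genes with values on both. The features of ND-51 on replicate 2 and of COX7A on replicate 1 lie farthest apart.

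Genes that work beside these complexes did not pass the test in any list either. Of 6 citric acid cycle and pyruvate genes on the array, 5 were tested. Means were above 0 for 5 in the likely direction (57.2% of all genes and features) with a median of 0.088, and for 1 as deposited (20.2% of all) with a median of -0.14. Scsalpha1, of succinyl-CoA synthetase, lay at 0.30, 0.033, 0.22 and 0.21 on replicates 1 to 4 (mean 0.19 ± 0.11, SD, n = 4). It was above 0 on every array, as were 6.9% of the genes and features measured on all 4. Ogdh, of oxoglutarate dehydrogenase, averaged 0.053 ± 0.38 (n = 4) and PCB, pyruvate carboxylase, 0.14 ± 0.17 (n = 4). The deposited means of Scsalpha1, Ogdh and PCB were -0.0255, -0.32 and 0.075.

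Of 10 mitochondrial carriers and porins on the array, 4 were tested. All 4 were above 0 in the likely direction, with a median of 0.16, and 1 was as deposited, with a median of -0.16. Dic1 averaged 0.21 ± 0.44 (n = 3), and -0.042 without replicate 4, and the phosphate carriers Mpcp2 and Mpcp1, which bring in the phosphate used by complex V, averaged 0.19 ± 0.21 and 0.13 ± 0.17 (n = 4 each). The deposited means of Dic1, Mpcp2 and Mpcp1 were -0.27, -0.080 and 0.081. Of 10 lysosomal genes and partners of the proton pump, 7 were tested. Means were above 0 for 5 in the likely direction, with a median of 0.032, and for 1 as deposited, with a median of -0.092. Rbcn-3B, a partner in the assembly of the vacuolar ATPase, lay at 0.12, 0.22, 0.18 and 0.53 (mean 0.26 ± 0.18, n = 4). It was above 0 on all 4 arrays, with an unadjusted p of 0.13 in limma. So were VhaSFD and 6.9% of the genes and features measured on all 4 arrays. The mean of Rbcn-3B as deposited was -0.092. The protease CtsB averaged 0.23 ± 0.24 and ATP6AP2, an accessory protein of the pump, 0.20 ± 0.42 (n = 4 each). Without replicate 4 the mean of ATP6AP2 was 0.035. The deposited means of CtsB and ATP6AP2 were -0.00625 and -0.33. Levy, a cytochrome c oxidase subunit whose symbol escapes the rule, averaged 0.094 ± 0.20 (n = 4) and was the 1 tested gene of 6 such respiratory genes on the array. Its deposited mean was -0.0084. None of 6 vesicular transporter genes that use the pump's gradient is named in the array's annotation.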

How the data were processed

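For each spot the authors deposited a log2 ratio of the array's 2 channels. Per the labels' protocols, a GenePix 4000A scanner and GenePix Pro 6.0 gave the intensities, and Acuity 4.0 normalized the ratios without spots dimmer than 100 units and than 2 times background. Spots with 3% or more saturated pixels, a flag below 0 or a ratio of signal to noise below 2 were removed. The formula and centring of the ratio are not given in the sources used here, and no intensities were used, so precision rests on the arrays and not on a depth.

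Neighbouring spots were averaged to features and features to genes. Genes and features with values on at least 3 arrays (3853) were fitted together with limma 3.58.1 in R 4.3.3 (lmFit and eBayes, 4 arrays against 0), with Benjamini-Hochberg adjustment over all of them. The test of dye orientation compares deposited values of replicates 3 and 4 with those of replicates 1 and 2. In the likely direction the treatment lies in that term and the dye in the deposited mean, and in the other reading it is the reverse, whatever was planned for it. Complex means are unweighted means over genes, with no test. The fit was tested on simulated data with shifts larger than any mean of a subunit gene and with no offset between arrays. That test does not bear on shifts of the size seen here or on the direction of the ratio. Every subunit gene is named, and from the other lists only genes among the 3 with the smallest p in each. The genes, lists and tests were chosen with earlier results of these data known. Gene symbols come from GEO's platform annotation, and 14894 of 15116 spots with 1 symbol matched a current gene ID. Alternatives tried were centring on the array or print block median, genes on all 4 arrays, extreme values left out, the median over features, the dye as a covariate, values as deposited, and each replicate left out.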

Additional observations from a re-analysis of the deposited data

Results flagged for a closer look

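The mean of complex I was flagged because 1 of its 4 arrays stood far from the others. Replicate 4 was at 0.253, against -0.087 to -0.076 on the other arrays, and this gap took up 0.967 of the whole range, above Dixon's 95% critical value for 4 samples. Of 41 sets of 4 values tested this way 1 was flagged, and chance alone flags about 1 in 20. The median of replicate 4 over all genes and features was itself 0.293, and minus that median complex I stood at -0.040 on replicate 4.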

How the results depend on the processing

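No subunit gene passed the adjusted threshold under any alternative. Over all genes, the likely direction gave 0 calls, and 1 (dpr16) with the print block median subtracted and 1 (dpr16) with the dye as a covariate. The values as deposited gave 0 calls, 9 with genes on all 4 arrays only, 44 with the covariate, and 0 to 2 with a replicate left out (2 without replicate 4). The dye orientation term gave 1 call, 0 after centring, 2 by block, 2 with genes on all 4 arrays, and 0 to 13 with a replicate left out (0 without replicate 3 or 4, 11 without replicate 2, 13 without replicate 1). The gene dpr16 is outside the symbol rule and is named because it was the call. The dye orientation term is the same test as the likely direction with the dye as a covariate. Its call, also dpr16, is therefore not a second result. As deposited, the means of complex V and of the vacuolar ATPase were -0.069 and -0.21, and the differences from the vacuolar ATPase were 0.12 for complex I, 0.069 for complex IV and 0.13 for complexes I to V. The signs of 11 of the 31 genes changed as deposited. With a replicate left out, the mean of complex I ran from -0.082 to 0.032, that of the vacuolar ATPase from -0.031 to 0.17, and the difference of complex V from -0.086 to 0.044. The cause of these changes was not tested. Each ratio sets 1 treated pool against the control pool of its set, so the fit is itself paired and a replicate block could not be added. Limits are the unstated direction of the ratio, 4 arrays, and the lack of values for 19 of the 50 genes on at least 3 arrays.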
